A study of Oryza sativa Japonica Group with 3 samples.

Results

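The phosphate sensing and uptake genes of rice were followed as 10 genes chosen by identifier: SPX1 (OS06G0603600), PHR2 (OS07G0438800), PHO2 (OS05G0557700), PHF1 (OS07G0187700), PHO1;2 (OS02G0809800) and the transporter genes PT1 (OS03G0150600), PT2 (OS03G0150800), PT4 (OS04G0186400), PT6 (OS08G0564000) and PT8 (OS10G0444700). They are 10 of the 35664 gene identifiers for which expression was measured in root tips. Inorganic phosphate is often the scarcest major nutrient in soil, and plants adjust its uptake to the supply through a small set of regulators. When phosphate is plentiful, SPX proteins bind the MYB factor PHR2 and keep it from activating starvation genes. When phosphate is scarce, PHR2 is released and raises the transcription of transporters of the PHT1 family, which carry phosphate across the plasma membrane of root cells. The endoplasmic reticulum protein PHF1 lets these transporters travel to the membrane, PHO1;2 exports phosphate to the xylem, and the ubiquitin-conjugating enzyme PHO2 holds down transporter proteins.

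RNA was sequenced from the terminal 1 cm of roots of Nipponbare seedlings aged 7 days, in 2 pools with 4 libraries each. The poly(A) pool came from the line p35S:HF-FLAG-OsRPL18, which expresses a tagged ribosomal protein, and was captured with oligo(dT) from a clarified tissue extract. The nuclear pool came from the line p35S:OsNTF2, whose tagged nuclei were captured on streptavidin beads and whose ribosomal RNA was degraded. Both transgenes are driven by the 35S promoter, which is active in most plant cells, and plants of both lines grew without any stated stress. Per the labels the agar held Murashige and Skoog medium at strength 1 for the poly(A) pool and at strength 0.5 for the nuclear pool, while the series' design text gives strength 1 for all. This medium contains phosphate salts, so the phosphate supply, if the labels are right, changed together with RNA pool, plant line and RNA selection, and these cannot be told apart. Replication rests on the design text, which speaks of 4 bioreplicates of each pool, and so do the p-values. A nuclear sample from the shoot base of another line, pOSH1:OsNTF1, was not analysed here.

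The deposited values are RPKM, the reads of a gene per kilobase of its length, scaled to the reads of the library, so that levels of different genes can be set against each other. The reads behind them could be recovered. Genes of the table received between 19411234 and 29943165 reads per poly(A) library but only between 1072511 and 2287770 per nuclear library. For a transcript of 1 kb, the step from one read to the next was 0.0333 to 0.0514 RPKM for poly(A) RNA and 0.436 to 0.930 RPKM for nuclear RNA, so that nuclear values of low genes carry large counting errors. Over all tested genes the libraries correlated at 0.9915 to 0.9946 within the poly(A) pool, 0.8542 to 0.8909 within the nuclear pool and 0.6186 to 0.6913 between the pools. Of 6 genes known from rice roots, 5 were above 0 in every library, the exception being QHB, a homeobox gene of the quiescent centre. Their levels were not equal in the pools. SHR1 and SCR1 were higher in nuclear RNA (log2 difference 2.11 and 1.93, adjusted p = 1.39e-05 and 8.94e-06, limma). LSI1 and RCc3 were lower (log2 difference -1.63 and -1.38, adjusted p = 0.000102 and 0.000142, limma). LSI2 and QHB did not pass an adjusted p of 0.05. The shoot meristem gene OSH1 was listed at 0 in all 8 libraries. The 60 genes annotated with photosystem or chlorophyll binding proteins summed to between 73.6 and 100.8 RPKM per poly(A) library and between 85.3 and 119.4 RPKM per nuclear library, and 11 of them were at 0 throughout. In bulk samples of this kind, a change in the share of a cell type and a change in RNA per cell cannot be told apart.

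Of the 10 genes, 9 reached a mean of 1 RPKM in either pool and were tested, and 4 of these 9 differed between the pools. PHO2, PHR2 and PHF1 were lower in nuclear RNA, PT1 was higher, and SPX1, PHO1;2, PT2, PT4 and PT8 did not pass the test (limma on log2(RPKM + 1), adjusted p under 0.05). This is read against a background in which most genes differed: 63.0% of the 26928 tested genes were called, 33.1% as higher and 30.0% as lower in nuclear RNA. The median log2 difference of the 9 genes, nuclear minus poly(A), was 0.11, beside 0.08 over all tested genes. The 4 called genes were also those whose libraries did not overlap between the pools, as was the case for 61.1% of tested genes. A count of 4 among 9 genes was thus no larger a share than the background. Each of these 4 had an exact permutation p of 0.0286 (two-sided), the smallest that 4 against 4 libraries allow.

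**Figure D1:**
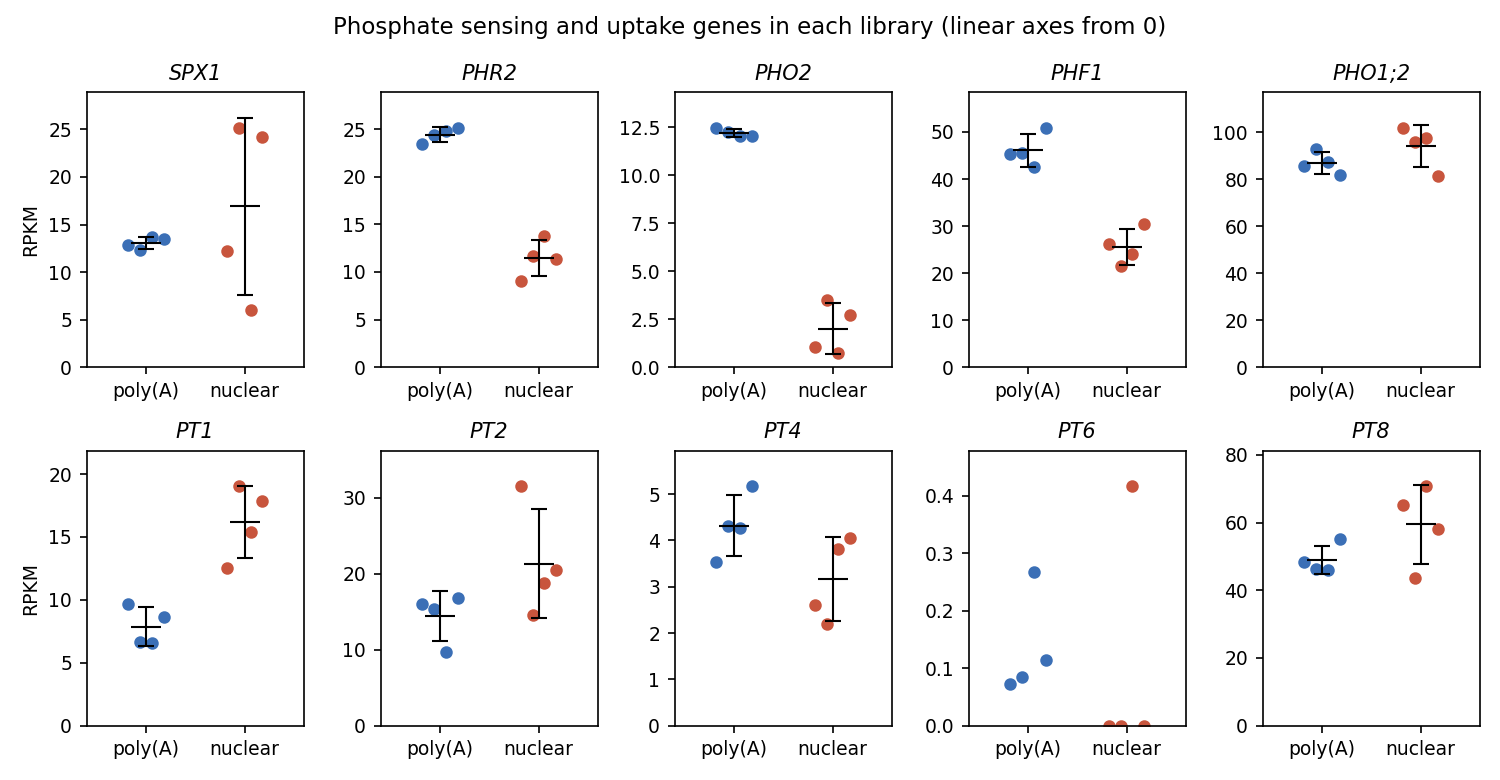
RPKM of each of the 10 genes in the 4 poly(A) and 4 nuclear libraries, on linear axes that start at 0 and differ between panels. Points are libraries, and bars are the mean with the SD of 4 libraries, not drawn for PT6. PHR2, PHO2, PHF1 and PT1 are the genes whose 2 pools do not overlap.

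SPX1 is the phosphate sensor of the group, a small nuclear protein that binds PHR2 when phosphate is present. Its level was even among the poly(A) libraries, at 12.9, 12.3, 13.7 and 13.4 RPKM (13.1 ± 0.612, SD, n = 4). In nuclear RNA it was 12.3, 25.2, 6.04 and 24.2 RPKM (16.9 ± 9.32, SD, n = 4). Nuclear replicates 2 and 4 lay above every poly(A) library and nuclear replicates 1 and 3 lay below every one, and the nuclear SD was larger than the 2.94 RPKM that counting 151 reads would give alone. Between the pools, SPX1 differed by 0.16 ± 0.39 (SE) on the log2 scale, with a 95% interval from -0.74 to 1.06 and an adjusted p of 0.733 (limma). The interval thus holds changes of up to 2.09-fold upward on the scale of RPKM + 1, and the sign of the difference rests on single libraries. Without nuclear replicate 2 the difference was -0.082, and without nuclear replicate 4 it was -0.063.

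PHR2 is the MYB-CC transcription factor that activates phosphate starvation genes through a short promoter element. Its level was 23.4, 24.4, 24.8 and 25.1 RPKM in poly(A) RNA (24.4 ± 0.756, SD, n = 4). The nuclear libraries gave 9.07, 11.6, 13.8 and 11.4 RPKM (11.5 ± 1.94, SD, n = 4). Every nuclear library lay below every poly(A) library, and the nuclear spread was no larger than the 2.08 RPKM of counting alone. On the log2 scale PHR2 differed by -1.04 ± 0.14 (SE; 95% interval -1.37 to -0.71; adjusted p = 0.000287, limma). This is 2.06-fold lower in nuclear RNA on the scale of RPKM + 1.

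PHO2 is a ubiquitin-conjugating enzyme, named LTN1 in the table, whose transcript is a target of miR399 and whose loss leads to overaccumulation of phosphate in leaves. It showed the largest difference of the 9 tested genes. Its poly(A) level was nearly constant, at 12.5, 12.2, 12.0 and 12.1 RPKM (12.2 ± 0.194, SD, n = 4). Its nuclear level was 1.03, 3.50, 0.740 and 2.71 RPKM (2.00 ± 1.33, SD, n = 4), from 6, 33, 4 and 12 reads. All nuclear libraries were far below the poly(A) libraries, although they differed among themselves by more than the 0.586 RPKM of counting alone. This amounted to a log2 difference of -2.25 ± 0.30 (SE; 95% interval -2.94 to -1.57; adjusted p = 0.000223, limma), a level 4.76-fold lower on this scale. Only 5.43% of all tested genes had a lower difference. PHO2 also had the longest model of the 10 genes, 4113 nt as recovered from its RPKM.

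PHF1 is an endoplasmic reticulum protein related to SEC12, and PHT1 transporters need it in order to leave that compartment. Its level was 45.3, 45.6, 42.6 and 50.9 RPKM in poly(A) RNA (46.1 ± 3.44, SD, n = 4). The nuclear values were 26.3, 21.6, 24.0 and 30.3 RPKM (25.5 ± 3.73, SD, n = 4). The pools were well separated, with the highest nuclear library below the lowest poly(A) library. PHF1 thus differed by -0.84 ± 0.14 on the log2 scale (SE; 95% interval -1.16 to -0.51; adjusted p = 0.000961, limma). This is 1.78-fold lower in nuclear RNA on the scale of RPKM + 1.

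PHO1;2 is the transporter that loads phosphate into the xylem for transfer from root to shoot, and it was the most abundant of the 10 transcripts in both pools. It stood at 85.6, 92.9, 87.4 and 81.6 RPKM in poly(A) RNA (86.9 ± 4.68, SD, n = 4). In nuclear RNA it stood at 102, 95.6, 97.4 and 81.2 RPKM (94.0 ± 8.91, SD, n = 4). The pools overlapped, since nuclear replicate 4 was below all poly(A) libraries and the other 3 nuclear libraries were above all of them. PHO1;2 had a log2 difference of 0.11 ± 0.13 (SE; 95% interval -0.18 to 0.40; adjusted p = 0.470, limma). On the scale of RPKM + 1 this interval runs from 0.884 to 1.32 times the poly(A) level.

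PT8 encodes a high-affinity PHT1 transporter of the root and was the most abundant of the 5 transporter genes. Its level was 48.4, 46.4, 45.9 and 55.0 RPKM in poly(A) RNA (48.9 ± 4.21, SD, n = 4). Among nuclear libraries it was 65.3, 43.6, 70.7 and 58.2 RPKM (59.4 ± 11.7, SD, n = 4). Nuclear replicate 2 lay below every poly(A) library and the other 3 nuclear libraries lay above every one. Its log2 difference was 0.26 ± 0.17 (SE; 95% interval -0.14 to 0.65; adjusted p = 0.222, limma). Without nuclear replicate 2 it was 0.40 and passed the test (adjusted p = 0.0319).

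PT1 encodes a PHT1 transporter that is expressed in roots also when phosphate is sufficient, and it was the only one of the 9 tested genes called higher in nuclear RNA. Its level was 9.69, 6.65, 6.54 and 8.61 RPKM in poly(A) RNA (7.87 ± 1.54, SD, n = 4). Nuclear levels were 12.5, 19.0, 15.4 and 17.9 RPKM (16.2 ± 2.89, SD, n = 4). The lowest nuclear library lay above the highest poly(A) library. PT1 had a log2 difference of 0.96 ± 0.18 (SE; 95% interval 0.54 to 1.37; adjusted p = 0.00187, limma). This is 1.94-fold higher in nuclear RNA on the scale of RPKM + 1.

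PT2 encodes a low-affinity PHT1 transporter that takes part in moving phosphate within the plant, and its identifier is close to that of PT1 in the numbering along the chromosome. Its level was 16.0, 15.4, 9.63 and 16.8 RPKM in poly(A) RNA (14.4 ± 3.26, SD, n = 4). The nuclear libraries stood at 31.5, 14.6, 18.8 and 20.4 RPKM (21.3 ± 7.21, SD, n = 4). Nuclear replicate 1 was high and nuclear replicate 2 fell within the poly(A) range. The log2 difference was 0.51 ± 0.26 (SE; 95% interval -0.08 to 1.10; adjusted p = 0.117, limma). Without nuclear replicate 1 it was 0.31.

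PT4 encodes a PHT1 transporter expressed in roots and developing embryos. Its level was 3.54, 4.32, 4.26 and 5.16 RPKM in poly(A) RNA (4.32 ± 0.666, SD, n = 4). In nuclear RNA it was 2.61, 2.19, 3.82 and 4.05 RPKM (3.17 ± 0.908, SD, n = 4), from 54 reads in all. Nuclear replicates 1 and 2 were below the poly(A) libraries and nuclear replicates 3 and 4 were among them. The log2 difference was -0.37 ± 0.19 (SE; 95% interval -0.80 to 0.06; adjusted p = 0.116, limma). Without nuclear replicate 4 it was -0.47 and passed the test (adjusted p = 0.0483).

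PT6 encodes a PHT1 transporter of roots known to be induced by phosphate starvation, and it was close to absent here. Its poly(A) levels were 0.0730, 0.0844, 0.267 and 0.114 RPKM, from 27 reads in all. A single nuclear read gave 0.416 RPKM in nuclear replicate 3, and the other nuclear libraries were at 0. The pooled level was 0.650 times that of poly(A) RNA with an exact 95% interval from 0.0159 to 3.94, which covers counting error only. No difference was detectable at this depth.

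**Figure D2:**
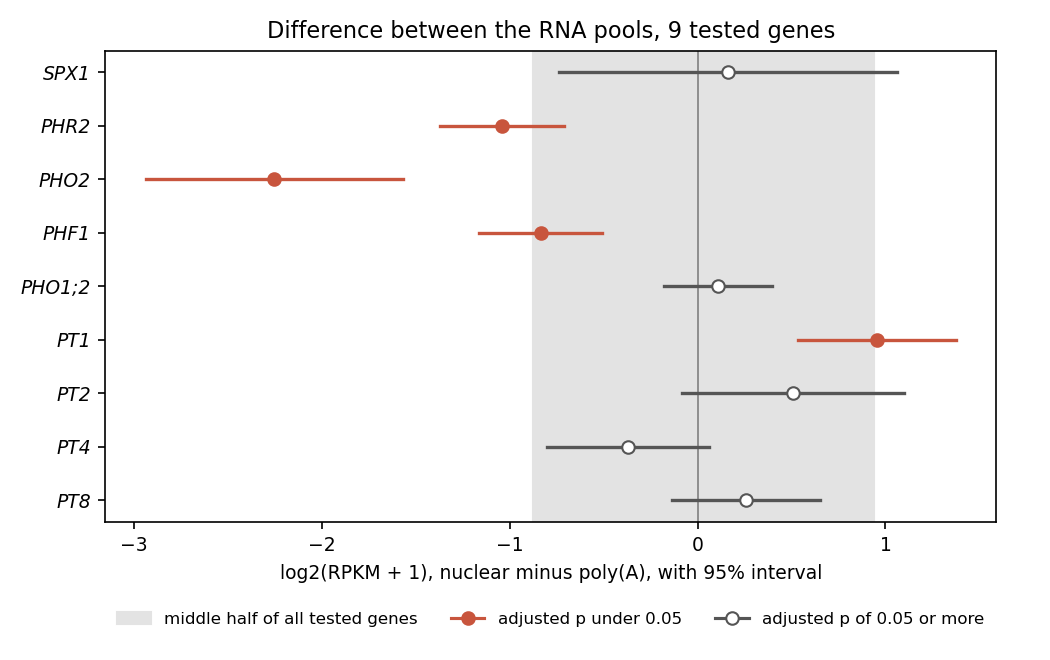
Difference in log2(RPKM + 1) between nuclear and poly(A) RNA for the 9 tested genes, with the 95% interval from limma. Filled red points passed an adjusted p of 0.05, and the grey band spans the interquartile range of all tested genes, from -0.87 to 0.94. PHR2 and PHO2 lie below the band and PT1 at its upper edge.

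The order of the genes by level differed between the pools, mainly in the places of PHR2, PHO2 and PT1. In poly(A) RNA the order from highest to lowest was PHO1;2, PT8, PHF1, PHR2, PT2, SPX1, PHO2, PT1, PT4 and PT6. The ranges of neighbours in this order were separate except for PT8 and PHF1, PT2 and SPX1, and SPX1 and PHO2. Within each poly(A) library PT8 was nevertheless above PHF1 and SPX1 above PHO2, while PT2 was above SPX1 in 3 of 4. In nuclear RNA the order was PHO1;2, PT8, PHF1, PT2, SPX1, PT1, PHR2, PT4, PHO2 and PT6. There the ranges of PHF1, PT2, SPX1 and PT1 each overlapped that of the next gene, as did those of PT4 and PHO2, whereas PHR2 was separate from PT4. PHO2 was above PT4 in every poly(A) library and below it in 3 of 4 nuclear libraries.

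The calls depended on the scaling of the libraries. RPKM summed over all genes to 744642 to 758629 per poly(A) library and 623150 to 630789 per nuclear library, and setting these sums equal moved the median difference of all tested genes from 0.08 to 0.29. Of all called genes, 52.5% were higher in nuclear RNA with RPKM as deposited, 61.3% with equal sums, 62.6% with the 100 highest genes left out of the sums and 45.9% with median centring. With equal sums 7 of the 9 genes were called, with PHO1;2 at 0.37, PT2 at 0.75 and PT8 at 0.51 added as higher in nuclear RNA (adjusted p = 0.0339, 0.0315 and 0.0285, limma). Under median centring, quantile normalization and removal of a trend with gene length, PT4 was called lower, at -0.53, -0.64 and -0.75 (adjusted p = 0.0404, 0.0239 and 0.00770, limma). Quantile normalization also called PHO1;2 higher, at 0.48 (adjusted p = 0.0128, limma), so that 6 genes were called, 2 higher and 4 lower. PHR2, PHO2, PHF1 and PT1 kept their direction and their call under all 20 alternatives fitted over all genes.

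Ratios between genes within a library do not depend on a common scaling of that library, apart from the pseudocount, and 5 were compared. Quantile normalization and removal of the length trend shift genes by different amounts and can change such ratios. PHF1 stood at 0.924 to 0.982 of the RPKM of PT8, a transporter of the kind it serves, in the poly(A) libraries and at 0.339 to 0.521 in the nuclear libraries. The pools did not overlap, and the difference in log2 ratio, nuclear minus poly(A), was -1.09 (exact permutation p = 0.0286, adjusted over 5 ratios 0.0476). PHO2 stood at 0.132 to 0.148 of PHO1;2, a relative of the PHO1 protein that PHO2 targets in Arabidopsis, in the poly(A) libraries and at 0.00760 to 0.0366 in the nuclear libraries. This difference in log2 ratio was -2.36 (exact permutation p = 0.0286, adjusted 0.0476). PT4 stood at 0.0731 to 0.0938 of PT8 in the poly(A) libraries and at 0.0400 to 0.0696 in the nuclear libraries, again without overlap. The difference in log2 ratio was -0.63 (exact permutation p = 0.0286, adjusted 0.0476), so that PT4 was lower relative to PT8 in nuclear RNA although neither gene passed the test alone. SPX1 stood at 0.505 to 0.552 of PHR2, the factor it binds, in the poly(A) libraries and at 1.35, 2.16, 0.437 and 2.12 in the nuclear libraries. Nuclear replicate 3 was below all poly(A) libraries, and the difference of 1.20 did not pass (exact permutation p = 0.143, adjusted 0.179). The ratio of PT2 to PT1 differed by -0.45 with overlapping pools (exact permutation p = 0.257, adjusted 0.257). An exact p of 0.0286 is the smallest that 4 against 4 libraries allow. Its adjusted value rests only on how many of the 5 ratios reached it. PHF1 and PHO2 were each called alone, so their ratios are no separate result. No background over other gene pairs is given here, and of single tested genes 61.1% had pools without overlap.

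For 5 of the 10 genes, a neighbour in the numbering of the annotation had between 38.5% and 100% as many reads as the gene in every library, and never more, so that the same reads may have been counted for both. These pairs were picked out after the values were seen. PHO1;2 has an annotated antisense partner, the PHO1;2 cis-NAT, a natural antisense transcript that is known in rice to promote translation of PHO1;2. In poly(A) RNA the cis-NAT was credited with 48.1% to 54.1% as many reads as PHO1;2, and in nuclear RNA with 87.6% to 98.5%. The cis-NAT itself averaged 68.3 ± 5.91 RPKM in the poly(A) pool and 132.3 ± 6.27 RPKM in the nuclear pool (SD, n = 4), a log2 difference of 0.95 ± 0.12 (adjusted p = 0.000183, limma). The lowest nuclear library of the cis-NAT was at 123.9 RPKM and the highest poly(A) library at 73.3 RPKM. The strand setting of the counting is not given in the sources used here, so that sense and antisense reads of this pair cannot be told apart.

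The neighbour of SPX1, OS06G0603800, followed the same course. Its reads came to 48.0% to 53.2% of those of SPX1 in the poly(A) pool and 77.8% to 100% in the nuclear pool, and in nuclear replicates 1 and 3 its 24 and 11 reads equalled those of SPX1 exactly. It averaged 17.7 ± 1.09 RPKM in the poly(A) pool and 39.5 ± 18.2 RPKM in the nuclear pool (SD, n = 4), and was called higher (log2 difference 0.97, adjusted p = 0.0375, limma), a call lost under 9 of 20 alternatives with adjusted p from 0.0546 to 0.0889. OS03G0150901, the neighbour of PT2, had 84.3% to 87.9% as many reads as PT2 in the poly(A) pool and 98.8% to 100% in the nuclear pool. In nuclear RNA the 2 entries differed by 1 read in replicate 1 and by none in the others, and the neighbour was called higher (0.71, adjusted p = 0.0373, limma), a call lost under 8 of 20 alternatives with adjusted p from 0.0527 to 0.100. The neighbour of PT8, OS10G0444850, had 77.3% to 79.2% against 80.8% to 84.1%, and that of PT4, OS04G0186450, 73.6% to 78.6% against 38.5% to 100%. Whether the gene models overlap was not analysed here, and for these pairs the levels of the 2 entries cannot be treated as separate measurements. The neighbours of PT1 had at most 2.50% as many reads as PT1 in any library. Both neighbours of PHO2 were themselves called lower in nuclear RNA, with log2 differences of -0.85 for the ubiquitin-conjugating enzyme gene UBC41 (adjusted p = 0.0109) and -0.96 for OS05G0557800 (adjusted p = 0.0102, limma). UBC41 lost its call under 1 alternative (adjusted p = 0.0584). The other genes did not all share the direction of their neighbours. After PHF1 in the numbering stood a gene called higher in nuclear RNA, and the gene before PHF1 was not called. Neither neighbour of PHR2 was called. Beside PT6, which was not tested, the gene before was called higher and the gene after lower. Of all tested genes 33.1% were called higher and 30.0% lower.

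**Figure D3:**
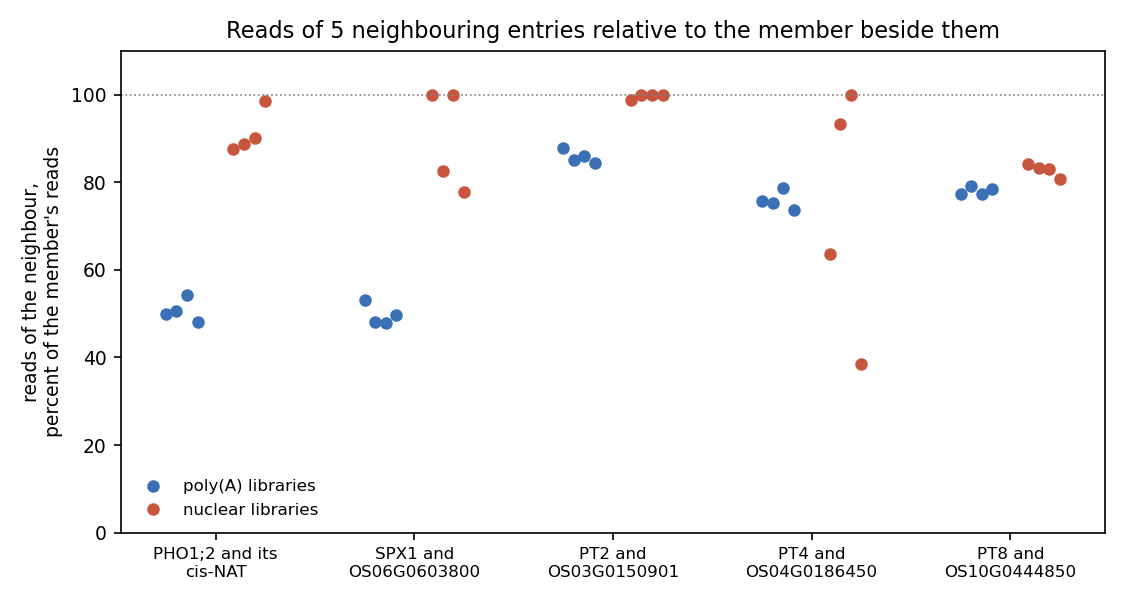
Reads of 5 neighbouring entries in each library, as a percentage of the reads of the gene beside them, for poly(A) (blue) and nuclear (red) libraries. The dotted line marks equal reads. For PHO1;2, SPX1, PT2 and PT8 the nuclear libraries lie above the poly(A) libraries, and for PT4 they scatter from 38.5% to 100%.

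Set within the whole PHT1 family, PT8 held the largest share of the transporter transcripts in both pools. The RPKM of PT1 to PT13 came to 80.8 ± 8.12 for the poly(A) pool and 115.7 ± 15.6 for the nuclear pool (SD, n = 4), with ranges of 71.9 to 91.1 and 94.1 to 127.7. PT8 made up 60.7% ± 2.25 of the sum in poly(A) RNA and 51.0% ± 3.70 in nuclear RNA. The share of PT2 was 17.7% ± 2.94 and 18.2% ± 4.63, and that of PT1 9.71% ± 1.41 and 14.4% ± 4.51. PT4 had 5.36% ± 0.731 and 2.73% ± 0.664, and PT10 had 2.14% ± 0.157 and 7.15% ± 2.20. The ranges of these shares did not overlap between the pools for PT4, PT8 and PT10 but overlapped for PT1 and PT2. For the levels of single tested genes, 61.1% had pools without overlap. A share also moves with the rest of the sum. The share of PT8 was smaller in nuclear RNA although its mean level was 48.9 RPKM in the poly(A) pool and 59.4 RPKM in the nuclear pool. PT11, a transporter known from mycorrhizal roots, made up at most 0.0507% of the sum in any library, and PT13 was listed at 0 in all. Of the 13 family genes, 8 were tested, 3 were called higher in nuclear RNA (PT1, PT5 and PT10) and none lower, with a median log2 difference of 0.55. Between 2 and 5 were called higher and between 0 and 1 lower over the alternatives. Over all tested genes 33.1% were called higher and 30.0% lower, and 3 of 8 genes is close to the first of these shares. PT5 was low, at 0.506 to 0.767 RPKM per poly(A) library and 1.77 to 3.78 RPKM per nuclear library. PT10 stood at 1.45 to 1.97 and 4.97 to 11.1 RPKM.

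**Figure D4:**
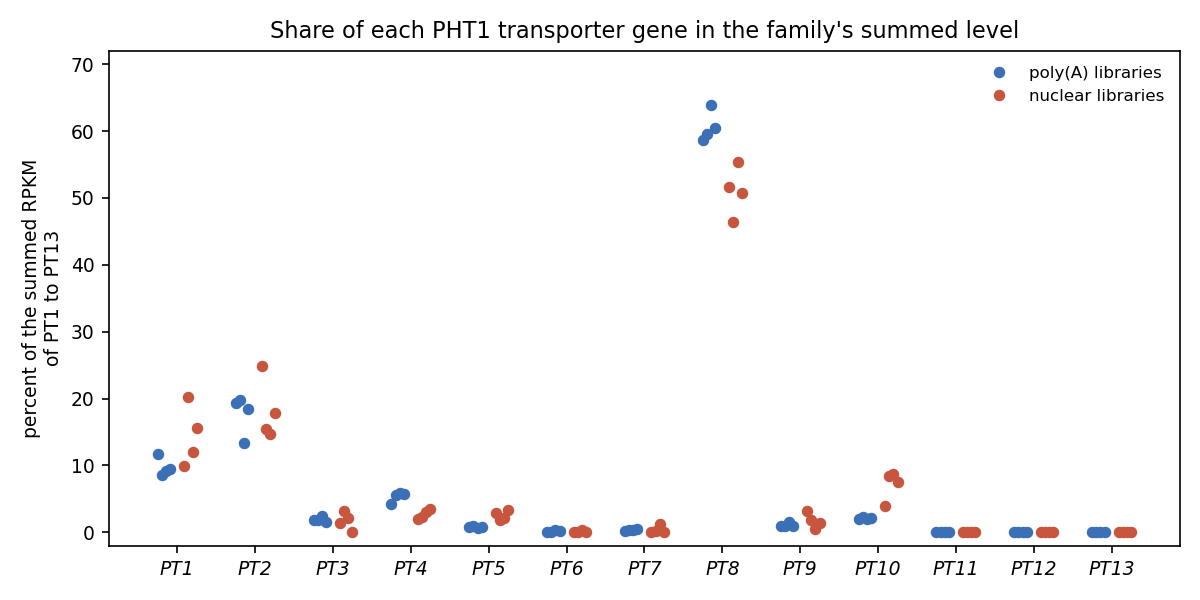
Share of each of the 13 PHT1 genes in the family's summed RPKM, in percent, for the 4 poly(A) (blue) and 4 nuclear (red) libraries. PT8 holds 58.7% to 63.9% in poly(A) and 46.3% to 55.4% in nuclear libraries, and PT10 averages 2.14% and 7.15%.

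Genes that surround the 10 in the phosphate response were read from lists drawn up from annotation words, and counted in each direction. The background for these counts is 33.1% of tested genes called higher and 30.0% lower, with a median log2 difference of 0.08. Among the regulators, 7 genes matched as PHR or MYB-CC factors, of which 1 was called higher and 3 lower, with a median log2 difference of -0.17. The 3 lower genes were PHR2 and its homologues PHR1 and PHR3. OS02G0700300 and OS04G0665600, both annotated as similar to a phosphate starvation response regulator, were not called. Their log2 differences were -0.17 and 0.06 (adjusted p = 0.704 and 0.878, limma). PHR1 averaged 20.5 ± 0.652 RPKM in the poly(A) pool and 4.30 ± 2.36 RPKM in the nuclear pool (log2 difference -2.19 ± 0.39, adjusted p = 0.00115, limma). PHR3 stood at 1.56 to 3.26 RPKM in the poly(A) pool and at 0.382, 0, 3.28 and 0 RPKM in the nuclear pool, from 1, 0, 8 and 0 reads. Its pools overlapped, since nuclear replicate 3 lay above every poly(A) library. The call of PHR3 (-1.19, adjusted p = 0.0473) was lost under 12 of 20 alternatives, with adjusted p from 0.0522 to 0.115. The higher gene, NIGT1, is a nitrate-inducible repressor and no PHR (7.93 ± 1.10 to 19.8 ± 4.15 RPKM, log2 difference 1.20, adjusted p = 0.000504). One further gene of this list, OS02G0202200, is annotated as an SPX protein.

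Among the 16 genes annotated with an SPX domain or as PHO1 relatives, 14 were tested, 4 were higher and 4 lower, and the median was -0.00. The lower genes included OS03G0827500, an SPX family gene (11.9 ± 0.645 to 2.99 ± 2.36 RPKM, -1.85, adjusted p = 0.00121), and PHO1;1 (2.03 ± 0.0748 to 0.666 ± 0.556 RPKM, -0.93, adjusted p = 0.00903). OS06G0129400, annotated as a vacuolar phosphate efflux transporter, was lower (log2 difference -0.59, adjusted p = 0.00841). Of the 4 higher entries, 2 are annotated as antisense transcripts. Besides the PHO1;2 cis-NAT, that of PHO1;3 went from 1.85 ± 0.536 to 7.52 ± 3.43 RPKM (1.49, adjusted p = 0.00339), while PHO1;3 itself was higher by 0.71 (adjusted p = 0.0327, limma), which did not hold under 10 of 20 alternatives (adjusted p from 0.0530 to 0.235). In the nuclear libraries this cis-NAT had 13, 19, 7 and 3 reads and PHO1;3 had 13, 29, 10 and 4, so that here too the reads of the pair cannot be told apart. The fourth, OS09G0521800, was low in both pools (0.643 ± 0.0678 to 1.52 ± 0.274 RPKM, 0.61, adjusted p = 0.00289). The list also holds an antisense entry of PHO1;1, which was too low to be tested and went the other way. It averaged 0.883 ± 0.102 RPKM in the poly(A) pool and 0.134 ± 0.269 RPKM, from 1 read, in the nuclear pool (SD, n = 4).

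Transporter annotation matched 33 genes, of which 24 were tested, 7 were higher and 7 lower, with a median of -0.11. Among the higher genes was PT14, a phosphate transporter family gene that went from 0.468 ± 0.160 to 8.35 ± 2.66 RPKM (2.62, adjusted p = 2.41e-05). PHT3, which shares only a symbol with phosphate transporters and is annotated as a transferase, went from 5.59 ± 0.781 to 40.0 ± 8.44 RPKM (2.62, adjusted p = 5.7e-06). Among the lower genes were PT15, a mitochondrial phosphate carrier (368.8 ± 8.62 to 171.1 ± 20.5 RPKM, -1.11, adjusted p = 0.000112, but -0.25 with adjusted p = 0.161 under quantile normalization), PT26 (26.5 ± 0.694 to 6.19 ± 0.822 RPKM, -1.94, adjusted p = 4.42e-06) and PHF1. A casein kinase beta subunit gene, OS07G0495100, was also matched and called lower (log2 difference -1.45, adjusted p = 0.00191, limma).

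Purple acid phosphatases, secreted or vacuolar enzymes that release phosphate from organic compounds, numbered 27, of which 19 were tested, 2 were higher and 6 lower, with a median of -0.29. PAP26 averaged 44.1 ± 1.07 RPKM in the poly(A) pool and 8.85 ± 2.08 RPKM in the nuclear pool (-2.22, adjusted p = 9.31e-06). PAP3C, the most abundant of the named ones, was at 156.6 ± 5.59 and 79.8 ± 12.8 RPKM (-0.98, adjusted p = 0.000519), and PAP10A was lower (log2 difference -0.93, adjusted p = 0.00309). PAP15 and PAP23 were higher by 1.00 and 0.74 (adjusted p = 0.00416 and 0.0191, limma). The list also matched PAP2, a MADS-box factor with the same symbol.

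Enzymes of membrane lipid remodelling, which replace phospholipids by galactolipids and sulfolipids under starvation, numbered 11, of which 9 were tested, 1 was higher and 4 lower, with a median of -0.52. A digalactosyldiacylglycerol synthase gene, OS03G0268300, was at 25.0 ± 1.31 and 6.25 ± 1.06 RPKM (-1.85, adjusted p = 1.09e-05), and the sulfoquinovose synthase gene OS05G0387200 was lower (log2 difference -1.44, adjusted p = 0.000695). Inositol phosphate kinases, which make the inositol phosphates that SPX proteins sense, numbered 8, all tested, with 2 higher, 2 lower and a median of 0.46. ITPK5 was higher by 1.02 (adjusted p = 0.00118) and ITPK6 lower (log2 difference -2.02, adjusted p = 0.00312, limma).

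Ubiquitin-conjugating enzymes, the class to which PHO2 belongs by function, numbered 32, of which 27 were tested, 4 were higher and 16 lower, with a median of -1.07. Of all tested genes 33.1% were called higher and 30.0% lower, with a median of 0.08. PHO2 was not matched by the words of this list. UBC10 was at 61.8 ± 4.24 and 4.84 ± 0.871 RPKM (-3.43, adjusted p = 7.54e-07), UBC4 at 26.5 ± 1.62 and 2.75 ± 0.595 RPKM (-2.88, adjusted p = 1.62e-06), and UBC5A at 270.1 ± 22.0 and 30.0 ± 8.12 RPKM (-3.16, adjusted p = 3.38e-06). Of the 4 higher genes, OS03G0679300 and OS01G0229900, had log2 differences of 2.81 and 2.56 (adjusted p = 1.28e-06 and 5.54e-06, limma). PI1, a short starvation-induced RNA of a family that in Arabidopsis sequesters the miRNA acting on PHO2, was at 16.3, 25.6, 22.9 and 24.5 RPKM in poly(A) RNA. It had 0, 4, 5 and 0 nuclear reads, giving at most 9.88 RPKM, and was lower (log2 difference -3.05 ± 0.76, SE; adjusted p = 0.00728, limma).

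**Figure D5:**
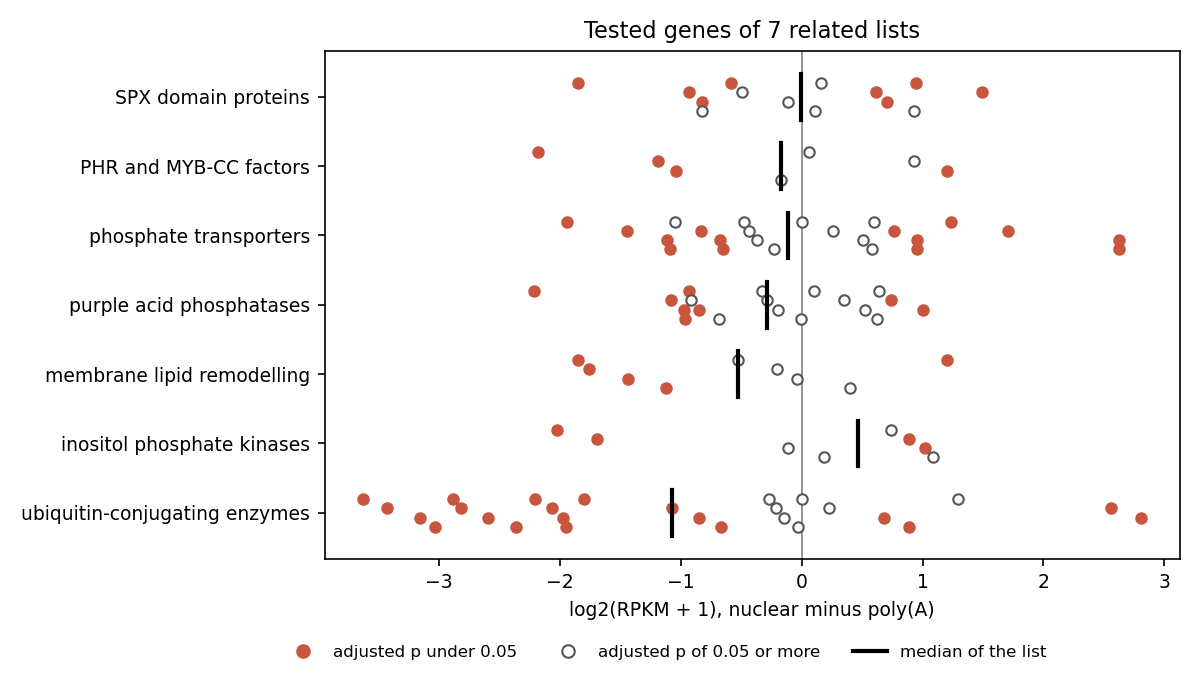
Difference in log2(RPKM + 1), nuclear minus poly(A), of the tested genes of 7 lists. Filled red points passed an adjusted p of 0.05, open points did not, and the black bar is the median of the list. Ubiquitin-conjugating enzymes have the lowest median, -1.07, and inositol phosphate kinases the highest, 0.46.

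The counts of these lists stand beside the same background as those of the 10 genes, 33.1% higher and 30.0% lower. Besides PHR3, PHO1;3 and PT15, some list genes named here lost their call under some of the 20 alternatives. PAP23 lost it under 4. Its log2 difference was 0.29 with the length trend taken off and 0.51 with quantile normalization (adjusted p = 0.295 and 0.0584, limma), and 0.69 and 0.71 without poly(A) replicate 1 and without poly(A) replicate 4 (adjusted p = 0.0547 and 0.0516, limma). OS06G0129400 lost it under both equal-sum scalings, at -0.33 and -0.29 (adjusted p = 0.0849 and 0.118, limma). PHO1;1 lost it with a pseudocount of 0.1 (adjusted p = 0.0509, limma) and OS09G0521800 with thinned poly(A) reads (0.48, adjusted p = 0.103, limma).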

How the data were processed

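The RPKM values, 1 column per library, were computed by the authors before they were deposited. The build named is IRGSP-1.0 and the tools named are CASAVA 1.8, TopHat2 2.1.1 and FastQC, per the submitters' processing notes. Which counter and gene models were applied, and whether strand was used, is not given in the sources used here. Of the 35664 identifiers, 29 were on more than 1 line with equal values and were taken once. Reads and gene lengths were recovered from the steps of the RPKM values: whole reads, within 0.0001 of a read, were found for each of the 33191 genes above 0.

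Differences were fitted with limma 3.58.1 (lmFit and eBayes, R 4.3.3) on log2(RPKM + 1), a scale that understates changes of low genes. The fit took in the 26928 genes whose RPKM averaged 1 or more in 1 of the pools, two-sided, with Benjamini-Hochberg adjustment over all of them. The procedure was also run on simulated data, in which both pools had the same spread beyond counting. That run cannot speak for genes that spread more in the nuclear pool, such as SPX1 and PHO2. Single values and ratios were compared with exact permutation tests (scipy 1.17.1). The 10 genes, the lists, tests and alternatives were chosen with earlier results of these data known. Named were the 10 genes and, of each list, up to 3 genes called higher and 3 called lower with the smallest adjusted p, besides root genes by symbol. The family members, neighbours and list genes given outside that rule were named after their values were seen. Gene symbols and annotation words are those of the table, and the lists match words, so that a few unrelated genes with the same word are included. Libraries of the same number did not deviate together between the pools (correlations -0.0476 to 0.00922), so no pairing was used. The alternatives were another pseudocount, 2 other filters, 4 other scalings, voom on recovered reads, thinned poly(A) reads, a length trend, another prior, a replicate block and each library left out. Intervals from reads cover counting error only. Coordinates and sequences were not used here.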

Additional observations from a re-analysis of the deposited data

Results flagged for a closer look

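PT6 in nuclear replicate 3 stood apart from the other nuclear libraries, at 0.416 RPKM against 0 in each of them. The value is that of 1 read. It was the only such case among the 20 groups of 4 libraries looked at, 10 genes in 2 pools. A single read beside libraries at 0 always stands apart in this way. The rate of about 1 in 20 that chance alone would flag therefore does not hold for it.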

How the results depend on the processing

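Of 179 values of the 9 tested genes under the alternatives, 162 kept their direction and their side of the threshold, 12 passed it in addition, 5 changed sign and 0 of the called ones lost their call. The count of called genes was 7 with an equal RPKM sum and 7 when the 100 highest genes were left out of that sum, against 4 (4 higher and 3 lower in both cases). These scalings moved the median difference of all genes from 0.08 to 0.29 and 0.32, and the share of calls that were higher from 52.5% to 61.3% and 62.6%. Median centring moved them the other way, to -0.078 and 45.9%, with 5 of the genes called, and quantile normalization gave 50.0% and 6 called. Changed signs were seen for genes that were not called: PHO1;2 at -0.048 with median centring and -0.27 with the length trend taken off, PT8 at -0.038 with the length trend taken off, and SPX1, which ranged from -0.082 to 0.55 with single libraries left out. With the replicate block, 4 of the genes and 16019 of all genes were called, against 4 and 16978, and no call among the 10 genes changed. For the other named genes, 765 of 814 values stayed on their side of the threshold and 49 lost the call. Nuclear depth limits the low genes, since PHO2, PT4 and PT6 rest on 55, 54 and 1 nuclear reads.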
